A study of Mus musculus with 6 samples.

Results

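The triad of skeletal muscle is the junction where a T-tubule, an inward fold of the surface membrane, meets terminal cisternae of the sarcoplasmic reticulum. The genes described here encode its calcium release machinery: the ryanodine receptors Ryr1 and Ryr3, the dihydropyridine receptor subunits Cacna1s, Cacna2d1, Cacnb1 and Cacng1, the adaptor Stac3, and the junctophilins Jph1 and Jph2. They were taken by name, not by their values, and all 9 were present among the 12625 genes of the raw count table. RNA was compared between C2C12 myotubes exposed to recombinant mouse RANKL at 100 ng/ml for 72 h (3 libraries) and myotubes given vehicle (3 libraries), all after 5 days of differentiation. C2C12 is an established mouse myoblast line whose cells fuse into multinucleated myotubes in culture, without nerve or load. RANKL is a cytokine best known for driving osteoclast formation through its receptor RANK. The labels do not say what the vehicle was or whether the replicates were separate cultures, so the p-values rest on spread among libraries that could be purely technical. The series set out to learn how muscle fibres respond to RANKL.

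In skeletal muscle an action potential spreads down the T-tubule and moves the voltage sensor of the dihydropyridine receptor, which is mechanically coupled to the ryanodine receptor and opens it. Calcium stored in the sarcoplasmic reticulum then flows into the cytosol and starts contraction. The junctophilins hold the membranes of the junction together, and Stac3 is needed for the coupling itself.

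Total counts lay between 32732604 and 37445933 in the RANKL libraries and between 33566746 and 39677999 in the vehicle libraries. The member with the fewest counts, Ryr3, still had 1797 in its shallowest library, which corresponds to a counting error of 2.36%. All 26 listed genes of differentiated myotubes were measured, among them Acta1, Ckm, Myog and the fusion gene Mymk, so the RNA carried the markers of the labelled cells. The heart forms Ryr2 and Cacna1c are not analysed here. Across the whole table edgeR's quasi-likelihood test called 12.9% of genes at an adjusted p under 0.05, with 676 higher and 947 lower. Genes called higher made up 5.35% of the table. They were 41.7% of the calls, and 63.1% of them when libraries were scaled by their total counts alone, where the median log2 fold change of all genes was 0.035, against 0.0047 here.

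Of the 9 triad genes 5 fell under RANKL, with changes of -8.10% to -15.6%: Ryr1, Ryr3, Cacna1s, Cacnb1 and Jph2. The share of all genes called lower was 7.50%. Among the abundant genes, those averaging 100 CPM (counts scaled to library size) or more, it was 19.6%, and this class holds 7 of the members, 4 of them called. Cacna2d1, Stac3, Cacng1 and Jph1 did not pass the test, with log2 fold changes that were also below 0, as they were for 48.3% of all genes. The median log2 fold change of the 9 was -0.12, beside 0.0047 for all genes. In 6 members every RANKL library lay below every vehicle library, as it did in 16.6% of all genes. Without RANKL replicate 2, or without vehicle replicate 2, 3 calls were left, those of Ryr1, Ryr3 and Cacna1s, and 4.72% and 4.25% of all genes were then called lower. Without vehicle replicate 1 there were 4, beside 4.44% of all genes. With a trend on gene length fitted and removed in each library 7 members were lower, beside 9.35% of all genes. With the trend on GC content removed there were 4, beside 8.95% of all genes, and on scaling to total counts also 4, beside 4.96%. These are whole-culture values, in which fewer cells of a type and less RNA per cell cannot be told apart.

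**Figure D1:**
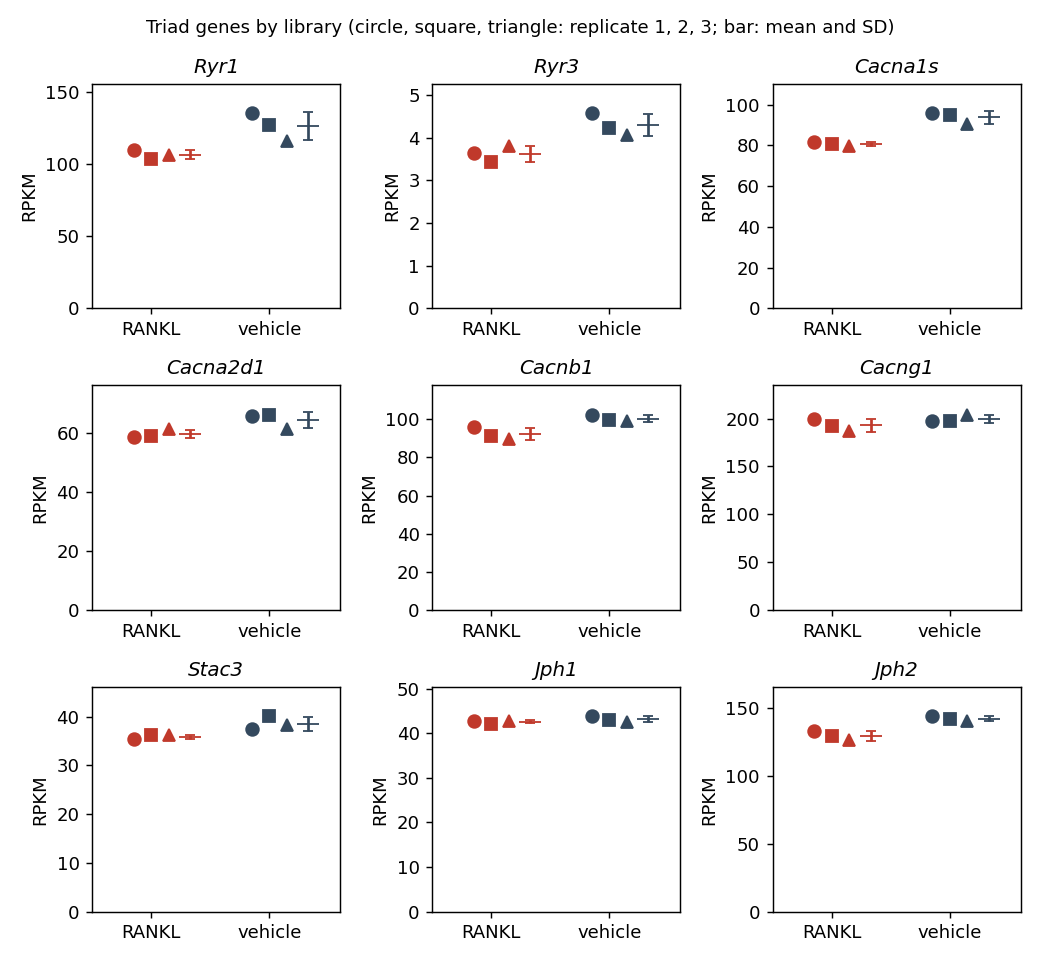
RPKM (vertical axis, from 0) of each triad gene in the RANKL and vehicle libraries, with the symbol giving the replicate and the bar the mean and SD of 3 libraries. The RANKL libraries of Ryr1 sit between 104 and 109.9 RPKM, below the 116 to 136 RPKM of the vehicle libraries, while those of Jph1 and Cacng1 overlap.

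Promoter windows from RefSeq (build GRCm38.p6, 250 bases before and 50 after a gene's start) were found for 5 of the 9 members, 7 windows in all. Those of 3 genes that fell are shown, one for each part of the machinery: the release channel, its voltage sensor and the junction. Capitals mark matches to CANNTG, the E-box bound by MyoD and myogenin. The windows are chr7:29125102-29125401 on the minus strand for Ryr1, chr1:136052561-136052860 on the plus strand for Cacna1s and chr2:163397944-163398243 on the minus strand for Jph2.
Ryr1: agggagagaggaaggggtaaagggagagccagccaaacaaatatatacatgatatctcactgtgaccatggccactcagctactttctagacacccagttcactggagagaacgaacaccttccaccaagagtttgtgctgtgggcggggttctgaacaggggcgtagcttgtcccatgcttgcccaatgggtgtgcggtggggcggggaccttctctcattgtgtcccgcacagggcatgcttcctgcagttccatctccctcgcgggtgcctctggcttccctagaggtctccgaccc
Cacna1s: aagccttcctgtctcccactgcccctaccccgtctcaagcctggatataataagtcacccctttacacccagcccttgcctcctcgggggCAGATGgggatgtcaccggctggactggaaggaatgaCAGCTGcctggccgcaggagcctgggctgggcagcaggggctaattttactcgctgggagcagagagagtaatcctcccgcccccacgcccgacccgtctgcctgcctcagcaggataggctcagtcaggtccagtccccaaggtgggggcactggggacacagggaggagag
Jph2: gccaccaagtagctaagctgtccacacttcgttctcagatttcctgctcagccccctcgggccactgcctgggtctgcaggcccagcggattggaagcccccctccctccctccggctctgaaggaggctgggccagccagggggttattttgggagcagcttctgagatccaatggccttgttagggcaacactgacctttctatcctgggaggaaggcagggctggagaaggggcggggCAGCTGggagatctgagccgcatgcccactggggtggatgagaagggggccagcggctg

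The Cacna1s window held CANNTG in 2 places and the Jph2 window shown in 1, while the Ryr1 window held none. Both Cacna1s and Jph2 held the form CAGCTG, starting 123 and 9 bases before the start site. Of the windows not shown, that of Cacna2d1 and 1 of the 2 of Cacnb1 held no CANNTG. The other Cacnb1 window held CACATG, and neither gene had CAGCTG. A second Jph2 window, which overlaps the one shown, held CAGCTG starting 29 bases before its start site. On either strand CANNTG, which includes CAGCTG and reads the same on both, was present in 72.3% of the 32851 RefSeq windows, and CAGCTG in 16.3%. Among the 12330 windows of genes in the count table the shares were 63.7% and 15.8%. The GC box GGGCGG occurred in all 3 windows shown and in 35.7% of all windows, or 62.1% of those of genes in the count table. The MEF2 motif matched in no member's window and in 0.557% of all windows. These are matches of letters only.

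Per length, the level of the 9 genes ran from Cacng1 at the top through Jph2, Ryr1, Cacnb1, Cacna1s, Cacna2d1, Jph1 and Stac3 down to Ryr3. With the gene lengths used, the order was the same under RANKL and under vehicle, and no 2 neighbours in it had overlapping libraries in either group. Cacng1 ranked 261 of 12625 genes by RPKM (reads per kilobase of gene, scaled to library size) in the RANKL libraries and 246 in the vehicle libraries. Ryr3 ranked 9028 and 8596. No member shares exon bases with another gene on its own strand. The gene lengths behind these RPKM values, recovered from the deposited values, are shorter than the merged exons in GENCODE M21 for several members. They come to 60.5% of the merged exons for Cacna2d1, 70.5% for Ryr1 and Stac3 and 81.3% for Ryr3, but to 95.8% for Cacna1s and 96.4% for Jph1. Both the order and the distances between genes in it carry that uncertainty. With other lengths neighbours could change places, and the order could differ between the groups.

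Ryr1, the calcium release channel of adult skeletal muscle, had 109.9, 104 and 107 RPKM in the RANKL libraries, against 136, 127 and 116 RPKM in the vehicle libraries. Every RANKL library was below every vehicle library, and vehicle replicate 1 stood highest. The log2 fold change was -0.24 ± 0.05 (SE, adjusted p = 0.00353 by edgeR), a change of -15.6% with 95% limits of -21.3% and -9.48%. The call held in all 17 alternatives, with log2 fold changes between -0.30 and -0.18. The alternative without a filter on low counts repeats the main fit, because the filter removed no gene. On mm10 the gene lies on chromosome 7 from 29003344 to 29125179, minus strand, with 109 merged exons, and 914 of its exon bases are shared with Gm26604 and Gm44408 on the other strand.

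Ryr3, a second ryanodine receptor known from developing muscle and diaphragm, was far lower at 3.65, 3.43 and 3.80 RPKM in the RANKL libraries, against 4.58, 4.23 and 4.07 RPKM in the vehicle libraries. The groups did not overlap. Its log2 fold change was also -0.24 ± 0.05 (adjusted p = 0.00440 by edgeR), and it kept its call in all alternatives except the limma-trend test on the deposited log2 values (adjusted p = 0.0591). Ryr3 lies on chromosome 2 from 112631355 to 113217096, minus strand, with 916 exon bases shared with Aven on the other strand. The level of Ryr3 per length was 3.40% ± 0.149 of that of Ryr1 in RANKL libraries and 3.40% ± 0.0873 in vehicle libraries (SD, n = 3 each). The log2 ratio differed by -0.0015 with a within-group SD of 0.05 (exact two-sided permutation p = 1), a difference smaller than the spread between libraries. With the GC trend removed it was -0.055.

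Cacna1s encodes the pore-forming subunit of the dihydropyridine receptor and carries its voltage sensor. Its level was 81.6, 80.7 and 79.9 RPKM in the RANKL libraries, against 95.9, 95.1 and 90.3 RPKM in the vehicle libraries. The RANKL libraries lay close together and all below the vehicle libraries. A log2 fold change of -0.22 ± 0.03 (adjusted p = 0.000590 by edgeR) gave Cacna1s the smallest p of the 9, rank 192 of all genes, and its call held in every alternative. It lies on chromosome 1 from 136052750 to 136119822, plus strand, and 1309 of its exon bases are also in Gm37759 on the other strand.

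Cacnb1, the intracellular beta subunit that carries the channel to the membrane, had 95.7, 91.2 and 89.7 RPKM in the RANKL libraries, against 102, 99.5 and 99.1 RPKM in the vehicle libraries. The groups did not overlap, but their nearest libraries were only a few RPKM apart. The log2 fold change of -0.12 ± 0.03 (adjusted p = 0.0257 by edgeR) was the least secure of the 5 calls. It ended on scaling to total counts, on removal of the trend on GC content (-0.078) and on leaving out any one library except RANKL replicate 1, with log2 fold changes of -0.15 to -0.10 over the 6 omissions. The gene lies on chromosome 11 from 98001508 to 98023034, minus strand, with 80 exon bases shared with Gm11629 on the other strand.

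Cacna2d1, the extracellular alpha-2/delta subunit, had 58.8, 58.9 and 61.5 RPKM in the RANKL libraries, against 65.7, 66.4 and 61.3 RPKM in the vehicle libraries. RANKL replicate 3 and vehicle replicate 3 overlapped. The log2 fold change, -0.11 ± 0.04, did not pass (adjusted p = 0.0602 by edgeR, and 0.0479 by DESeq2). It passed without RANKL replicate 3 (-0.13), without vehicle replicate 3 (-0.14) and with the GC trend removed (-0.17). Of the 9 genes its longest transcript has the lowest GC content, 40.7%, with a median of 49.7% over all genes. Cacna2d1 lies on chromosome 5 from 15934691 to 16374511, plus strand, and no other gene shares its exons.

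Cacng1, the gamma subunit of the skeletal muscle channel and the most abundant member per length, had 200.1, 192 and 187 RPKM in the RANKL libraries, against 197, 198 and 204 RPKM in the vehicle libraries. The groups overlapped. The log2 fold change was -0.05 ± 0.03 (95% interval -0.12 to 0.02, adjusted p = 0.386 by edgeR), which spans changes of -8.01% to 1.64%. It stood at -0.099 and passed once the length trend was taken out. Its 1 annotated transcript has 4 exons on chromosome 11 from 107703218 to 107716522, minus strand, and it is the shortest member at 1205 bases.

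Stac3, the cytosolic adaptor of the channel complex, had 35.4, 36.1 and 36.1 RPKM in the RANKL libraries, against 37.3, 40.1 and 38.2 RPKM in the vehicle libraries. All RANKL libraries were lower, yet the log2 fold change of -0.10 ± 0.04 did not pass (adjusted p = 0.0863 by edgeR). As with Cacng1, removing the length trend gave a call (-0.13, adjusted p = 0.0219). Stac3 lies on chromosome 10 from 127501686 to 127508823, plus strand.

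**Figure D2:**
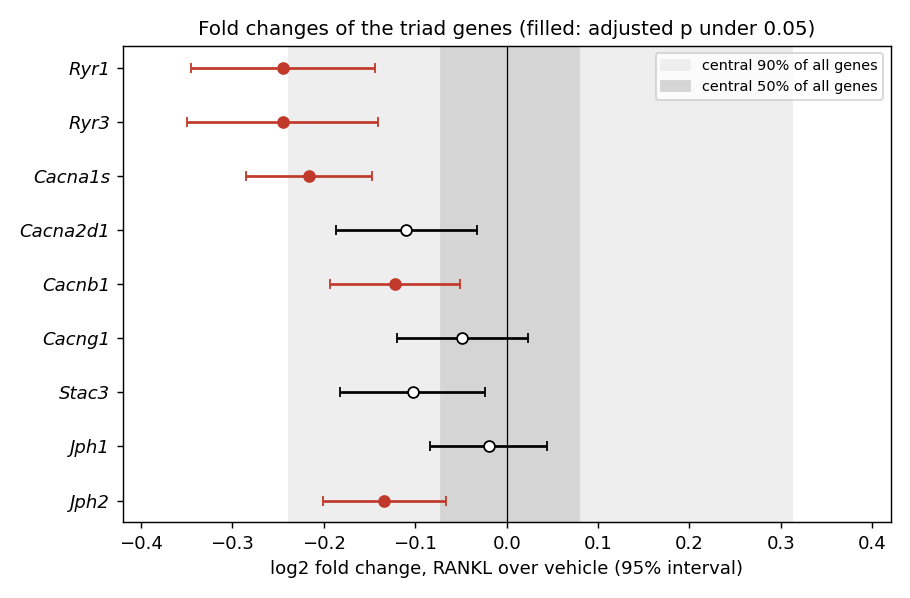
log2 fold change of RANKL over vehicle for each triad gene with its 95% interval, over bands that hold the central 50% and 90% of all 12625 genes. Ryr1 and Ryr3 at -0.24 lie at the edge of the wider band, whose lower limit is -0.24, and Jph1 at -0.02 lies near 0.

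The level of each other subunit relative to Cacna1s, per length, was higher in every RANKL library than in every vehicle library. These ratios all share Cacna1s as denominator, so they are not independent of each other or of the fall of Cacna1s. Cacng1 stood at 2.39 ± 0.0570 times Cacna1s in RANKL libraries and 2.13 ± 0.113 times in vehicle libraries, and Cacnb1 at 1.14 ± 0.0271 and 1.07 ± 0.0257 (SD, n = 3 each). Cacna2d1 was at 0.740 ± 0.0254 times under RANKL and 0.687 ± 0.00948 times under vehicle. Stac3 had 0.444 ± 0.00971 and 0.411 ± 0.0189 in the same order. The differences in log2 ratio were 0.17 for Cacng1, 0.09 for Cacnb1, 0.11 for Cacna2d1 and 0.11 for Stac3. Taken from fits with the length trend removed, the difference was 0.098 for Cacng1 and 0.063 for Stac3, and with the GC trend removed it was 0.027 for Cacna2d1. Without trend removal each ratio gave an exact two-sided permutation p of 0.1, the smallest that 3 against 3 libraries allow. Adjusted over the 7 ratios computed, this p was 0.14. The differences with a trend removed were not tested. Ryr1, in contrast, kept 1.32 ± 0.0325 times the level of Cacna1s in RANKL libraries and 1.35 ± 0.0629 times in vehicle libraries, a log2 difference of -0.03 with overlapping libraries (exact permutation p = 0.6, adjusted p = 0.7). That last ratio was added after its values were seen.

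Of the junctophilins Jph2 passed the test and Jph1 did not. Jph2, which anchors the reticulum to the T-tubule and is the main form in heart, had 133, 129 and 126 RPKM in the RANKL libraries, against 144, 142 and 141 RPKM in the vehicle libraries. The groups did not overlap, and the log2 fold change was -0.13 ± 0.03 (adjusted p = 0.0118 by edgeR). The call was lost without RANKL replicate 2 (adjusted p = 0.0584), without vehicle replicate 2 (0.0560) and with the GC trend removed (-0.080, adjusted p = 0.0731). Over its alternatives the adjusted p lay between 0.00145 and 0.0731. At 61.8%, its longest transcript is the richest in GC of the 9. Jph2 lies on chromosome 2 from 163336242 to 163397993, minus strand.

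Jph1, the other junctophilin of the skeletal muscle triad, had 42.7, 42.2 and 42.7 RPKM in the RANKL libraries, against 43.8, 42.9 and 42.6 RPKM in the vehicle libraries. All 6 libraries lay between 42.2 and 43.8 RPKM, and the groups overlapped. The log2 fold change was -0.02 ± 0.03 (adjusted p = 0.731 by edgeR), and its 95% interval spans a change of -5.62% to 3.14%. It was not called in any of the 17 alternatives, and its sign turned, to 0.011, on scaling to total counts. Jph1 lies on chromosome 1 from 16964560 to 17097889, minus strand, with 34 exon bases shared with Gm28376 on the other strand. Per length, Jph2 stood at 3.05 ± 0.0858 times Jph1 in RANKL libraries and 3.30 ± 0.00987 times in vehicle libraries (SD, n = 3 each). This ratio was lower in every RANKL library than in every vehicle library, by 0.11 on the log2 scale (exact two-sided permutation p = 0.1, the smallest possible, adjusted p = 0.14). With the GC trend removed Jph1 stood at -0.058 and Jph2 at -0.080, and the log2 ratio differed by -0.022.

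**Figure D3:**
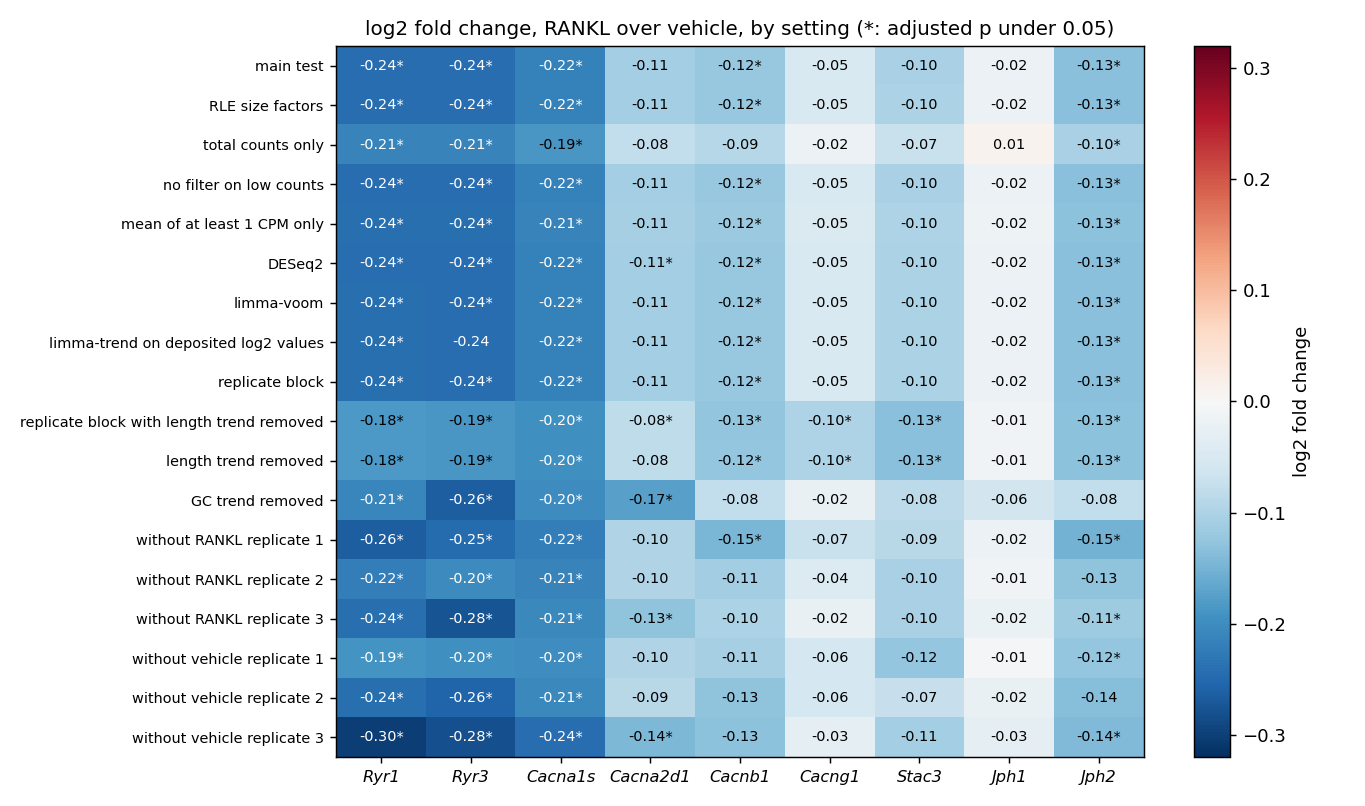
log2 fold change of RANKL over vehicle for each triad gene (columns) in the main test and the 17 alternatives (rows), with an asterisk where the adjusted p was under 0.05. Ryr1 and Cacna1s carry an asterisk in every row, Jph1 in none.

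The libraries did not all contribute alike. In log2 CPM centred on each gene's own mean, vehicle replicate 1 stood 0.23 above the mean for Ryr1 and 0.22 for Ryr3, while vehicle replicate 3 was at 0.0057 and 0.047. Without vehicle replicate 1 the log2 fold change of Ryr1 was -0.19, and without vehicle replicate 3 it was -0.30. Of the 8992 genes ranked by root mean square difference from Ryr1 over the 6 libraries, the nearest outside the members included Plec, Gm15800 and Ago2, with differences of 0.0206, 0.0291 and 0.0309. Plec encodes plectin, a very large cytoskeletal linker, and Ago2 an Argonaute protein that carries small RNAs. Ryr3 ranked 22 and Cacna1s 36 by this measure, Jph2, Cacnb1 and Cacna2d1 between 449 and 549, Stac3 1607, Jph1 2627 and Cacng1 2789. The longest members were Ryr3 at 15.4 kb, Ryr1 at 15.4 kb, Cacna2d1 at 7.51 kb and Cacna1s at 6.27 kb, beside a median of 2.94 kb over all genes. Of genes of at least 5 kb, 16.0% were called lower, and 3 of these 4 members were. With the trend on length removed Ryr1 stood at -0.18, Ryr3 at -0.19 and Cacna1s at -0.20, and all 3 kept their calls.

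**Figure D4:**
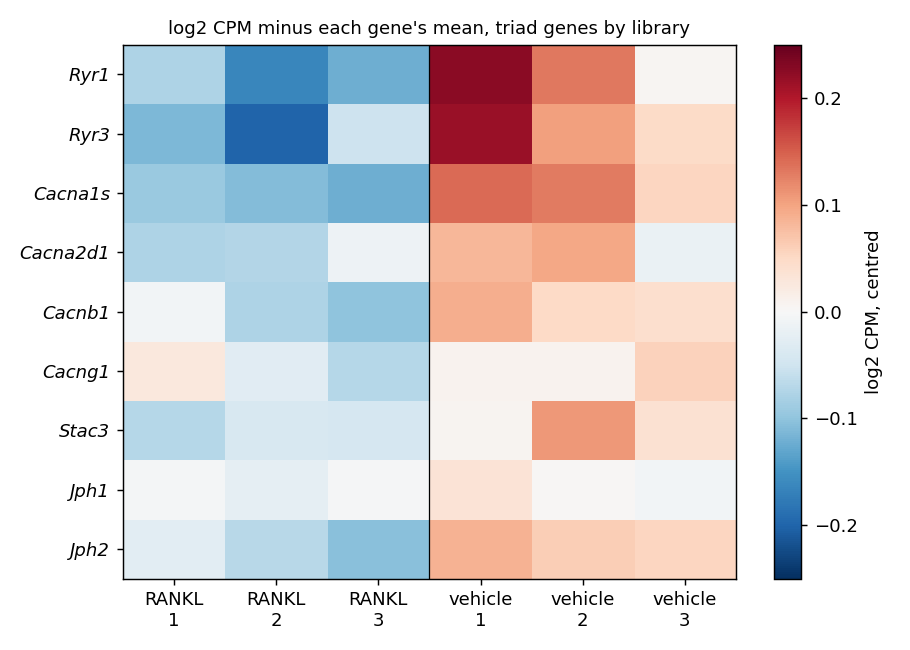
log2 CPM of each gene (rows) minus its mean over the 6 libraries (columns, RANKL left of vehicle), for the 9 triad genes. Vehicle replicate 1 stands highest for Ryr1, at 0.23, and Cacng1 stays between -0.071 and 0.057 in all libraries.

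Of 18 measured genes for proteins that bind the ryanodine receptor or sit in the same junction 2 fell and 1 rose. These are 11.1% and 5.56% of the list, near the 7.50% and 5.35% of all genes, and the list median was 0.00057. Speg, a kinase of the triad, had 8.98, 8.25 and 8.51 RPKM in the RANKL libraries, against 10.7, 9.60 and 9.76 RPKM in the vehicle libraries (log2 fold change -0.23 ± 0.04, adjusted p = 0.00432 by edgeR), and held in every alternative. Hrc, a calcium-binding protein of the reticulum lumen, averaged 156 ± 1.26 RPKM in RANKL libraries and 169 ± 2.01 RPKM in vehicle libraries (SD, n = 3 each, adjusted p = 0.0166 by edgeR). Its call ended without RANKL replicate 2, vehicle replicate 2 or vehicle replicate 3 and on scaling to total counts. Trdn (triadin), which ties the release channel to calsequestrin, averaged 40.8 ± 2.81 RPKM under RANKL and 37.0 ± 0.786 RPKM under vehicle. That rise, 0.14 ± 0.04 on the log2 scale (adjusted p = 0.0424 by edgeR), was lost without RANKL replicate 1 (0.088), without any one vehicle library, by limma-trend and with the GC trend removed (0.072). Casq1, the calsequestrin of fast fibres, had 246, 189 and 178 RPKM in the RANKL libraries and 186, 169 and 172 RPKM in the vehicle libraries. It did not pass (adjusted p = 0.104 by edgeR) and is named after its values were seen, because RANKL replicate 1 stood apart in it as in Trdn. Leaving out 1 library gave 0 to 3 genes higher and 1 or 2 lower in this list. There were 3 higher without RANKL replicate 3, beside 5.91% of all genes, and 0 without any one vehicle library, beside 2.95% to 3.58%. There was 1 lower without RANKL replicate 2, vehicle replicate 2 or vehicle replicate 3, where the shares of all genes were 4.72%, 4.25% and 5.72%.

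Among paralogs of the members 8 of 27 listed genes were measured, and 2 of the 8 fell, both beta subunits, beside 7.50% of all genes called lower. Cacnb3 averaged 48.6 ± 0.541 RPKM in RANKL libraries and 57.4 ± 1.53 RPKM in vehicle libraries, with a log2 fold change of -0.24 ± 0.03 (adjusted p = 0.000259 by edgeR) and a call in every alternative. Cacnb2 stood at -0.64 ± 0.14 on the log2 scale, with 0.610 ± 0.124 RPKM under RANKL and 0.938 ± 0.0300 RPKM under vehicle (adjusted p = 0.00924 by edgeR). With Cacnb1, all 3 measured beta subunit genes were called lower.

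Of 13 genes that shape the T-tubule and the triad 6 fell, beside 7.50% of all genes, with a list median of -0.11. Dysf (dysferlin, a membrane repair protein) had 31.7, 30.0 and 30.3 RPKM in the RANKL libraries, against 36.5, 34.7 and 33.9 RPKM in the vehicle libraries (log2 fold change -0.19 ± 0.04, adjusted p = 0.00303 by edgeR). Dnm2, the membrane-cutting GTPase dynamin 2, averaged 39.5 ± 0.451 RPKM under RANKL and 44.2 ± 0.895 RPKM under vehicle (adjusted p = 0.00338 by edgeR). Ank1, an ankyrin that links membrane proteins to the cytoskeleton, averaged 22.3 ± 0.599 RPKM under RANKL and 24.5 ± 0.250 RPKM under vehicle (adjusted p = 0.00962 by edgeR). Dysf and Dnm2 held in every alternative, whereas Ank1 was not called without RANKL replicate 2 or vehicle replicate 2 or with the length trend removed. The count of 6 became 3 without RANKL replicate 2 or vehicle replicate 1 and 2 without vehicle replicate 2, where the shares of all genes were 4.72%, 4.44% and 4.25%.

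Calcium reuptake and store-operated entry genes had 3 of 9 measured members lower, beside 7.50% of all genes (19.6% of those of at least 100 CPM), with a list median of -0.04. Srl (sarcalumenin, a luminal calcium-binding protein) averaged 166 ± 8.99 RPKM in RANKL libraries and 197 ± 3.58 RPKM in vehicle libraries (log2 fold change -0.25 ± 0.04, adjusted p = 0.000785 by edgeR), and held in every alternative. The pump Atp2a2 (SERCA2) averaged 307 ± 6.33 RPKM under RANKL and 336 ± 5.94 RPKM under vehicle (adjusted p = 0.0148 by edgeR). Stim2, a sensor of the store's calcium content, averaged 17.6 ± 0.173 RPKM under RANKL and 19.2 ± 0.388 RPKM under vehicle (adjusted p = 0.0175 by edgeR). Atp2a2 and Stim2 both lost their calls without RANKL replicate 2 or vehicle replicate 2, where 1 gene of the list was lower, beside 4.72% and 4.25% of all genes. Without RANKL replicate 1, 5 genes of the list were lower, beside 6.97% of all genes. Stim2 was also lost on scaling to total counts.

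Genes of membrane excitation upstream of the triad had 4 of 15 members lower, beside 7.50% of all genes (19.6% of those of at least 100 CPM), with a list median of -0.05. Kcnj2, an inward rectifier potassium channel that sets the resting potential, had 2.25, 3.26 and 4.02 RPKM in the RANKL libraries, against 4.59, 5.22 and 5.28 RPKM in the vehicle libraries. The groups did not overlap, and the log2 fold change was -0.67 ± 0.14 (adjusted p = 0.00471 by edgeR, and 0.0533 by DESeq2). Scn4a, the sodium channel of the muscle action potential, averaged 22.5 ± 1.35 RPKM under RANKL and 25.1 ± 1.65 RPKM under vehicle, with overlapping libraries (adjusted p = 0.0438 by edgeR). Scn4a was called in 9 of 17 alternatives. The count of 4 became 1 without RANKL replicate 2 or 3 or without vehicle replicate 1 or 2, and 2 without vehicle replicate 3. Without RANKL replicate 2, vehicle replicate 1 or vehicle replicate 2 the shares of all genes were 4.72%, 4.44% and 4.25%. Without RANKL replicate 3 or vehicle replicate 3 they were 6.89% and 5.72%. The count was also 1 on scaling to total counts (4.96% of all genes) or by limma-trend (5.37%). It was 2 with the length trend (9.35%) or the GC trend (8.95%) removed.

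**Figure D5:**
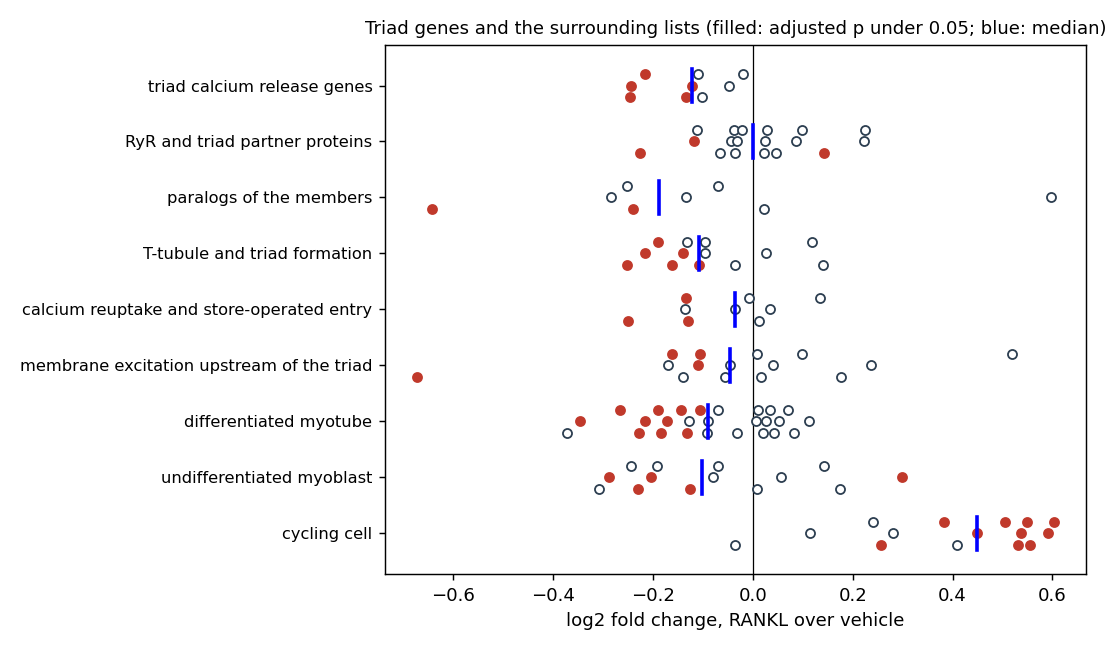
log2 fold change of RANKL over vehicle for every measured gene of the triad set, the surrounding lists and 3 marker lists, filled where the adjusted p was under 0.05, with the list median in blue. The triad genes all lie below 0, with a median of -0.12, and 10 of 15 cycling cell markers are filled above 0.

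Markers of the state of the culture moved beside these genes. Their counts stand beside the 7.50% of all genes called lower and the 5.35% called higher. Without vehicle replicate 2 these shares were 4.25% and 2.95%, and without RANKL replicate 3 the share called lower was 6.89%. Of 26 myotube markers 10 fell, 6 without vehicle replicate 2. All 26 but Mymx averaged at least 100 CPM, a class in which 19.6% of genes were called lower. The summed level of the 26 was 49817 to 51168 CPM in RANKL libraries and 52603 to 55556 CPM in vehicle libraries. Myh8 and Myh2, both myosin heavy chains, led by p, with log2 fold changes of -0.35 ± 0.05 and -0.22 ± 0.03 (adjusted p = 0.000439 and 0.00100 by edgeR). Of the 26 log2 fold changes 16 were below 0, beside 48.3% for all genes, and the list median was -0.09. Tnnt1, Ckm and Myog, named after their values were seen, stood at 0.11, 0.04 and 0.0069 and were not called. Of 15 cycling cell markers 10 rose, 6 without vehicle replicate 2, with a summed level of 309 to 339 CPM in RANKL libraries and 257 to 266 CPM in vehicle libraries. Mki67 and Cdk1, both of dividing cells, stood at 0.55 ± 0.06 and 0.51 ± 0.07 (adjusted p = 1.90e-05 and 0.000361 by edgeR). Of 14 genes listed as markers of undifferentiated myoblasts 4 fell and 1 rose, at 3068 to 3110 CPM summed under RANKL and 3442 to 3592 CPM under vehicle. Most of that sum is Itga7 alone, which averaged 1731 CPM under RANKL and 1995 CPM under vehicle. Pax7 averaged 0.593 and 0.729 CPM in the same order and was not called. The gene that rose was Cd34, at 0.30 ± 0.05 (adjusted p = 0.00133 by edgeR). Pax7 and Cd34 are named after their values were seen. Cdh15, the muscle cadherin, and Itga7, a laminin receptor, stood at -0.29 ± 0.03 and -0.20 ± 0.03 (adjusted p = 5.57e-05 and 0.00131 by edgeR). How much of the RNA of Cdh15 and Itga7 came from myotubes cannot be told, so their fall gives no measure of the myoblasts. In this list 2 genes fell without RANKL replicate 3 or vehicle replicate 2. Of 12 macrophage and osteoclast markers 4 were measured, at 6.73 to 7.64 CPM summed in RANKL libraries and 5.04 to 5.42 CPM in vehicle libraries. Mmp9 had 0.262 ± 0.0375 RPKM under RANKL and 0.0998 ± 0.0449 RPKM under vehicle (adjusted p = 0.00820 by edgeR). Its vehicle libraries, at 0.108 to 0.391 CPM, lay below the 0.504 CPM that the third-highest library of every gene reached. Mmp9 was thus in the count table only through its RANKL libraries, so its direction was set by that limit and is no test. Csf1r, Ctsk and Acp5 are not analysed here. Of 5 measured cardiac markers Myh6 fell (log2 fold change -0.22 ± 0.05, adjusted p = 0.00694 by edgeR), and the list summed to 3511 to 3665 CPM in RANKL libraries and 3568 to 3703 CPM in vehicle libraries. The part of these shifts in the values of the triad genes was not tested.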

How the data were processed

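RNA-seq libraries of C2C12 myotubes were grouped by their titles. The submitters' processing notes name STAR, FastQC and edgeR and the mouse build mm10. The counter, its annotation and any use of strand were not stated there, so reads shared with genes on the other strand cannot be assigned. The authors deposited raw counts for 12625 gene symbols, followed by 4708 empty lines, which were left out. In each gene the third-highest library reached at least 0.504 CPM, so low genes were absent from the start. The authors also deposited log2 values without a named unit. Set against the counts they are log2 RPKM with 1 scaling constant per library, and RPKM and gene lengths were taken from them on that reading.

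Counts were tested with edgeR 4.0.16 in R 4.3.3: TMM scaling, filterByExpr (0 genes removed), quasi-likelihood F tests, and p-values adjusted by Benjamini and Hochberg's method across the table, with a threshold of 0.05. Each SE was obtained from the fold change and its F statistic. Alternatives used DESeq2 1.42.0, limma 3.58.1, other scalings and filters, a replicate block, offsets for trends on gene length, and omission of each library. The trends were fitted in each library, so differences between replicates that follow gene length were removed too. Offsets for a trend on GC content were added after seeing the data. Steps were tested on simulated data. Chi-square per gene was 3.39 to 9.52 for pairs of libraries of 1 group, so all 6 were kept as separate samples. Positions and overlaps come from GENCODE M21 on mm10.

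All 9 members were named whatever their values, and from each list the called genes with the smallest p, up to 3 (2 for markers). Others are said to be chosen after their values were seen. The genes ranked by nearness to Ryr1 had a mean of at least 10 CPM, and the 5 nearest were to be named. Some genes these rules pick are not reported here. The members and lists were chosen with earlier results of these data known. The counting error given covers counting only.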

Additional observations from a re-analysis of the deposited data

How the results depend on the processing

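Over 17 alternatives, 132 of 153 fold changes of the 9 members kept their direction and side of the threshold, 11 lost a call, 9 gained one and 1 turned. Those 132 include the fit without a filter on low counts, which is the main fit again and could not differ. The cause was not tested. Counts of called genes over the table, 676 higher and 947 lower, were 1070 and 626 on scaling to total counts, and 1424 were lower with the replicate block and length trend removed. They ranged from 373 to 746 higher and from 537 to 880 lower when 1 library was left out. Members called lower, 5 in the main test, numbered 3 to 5 without 1 library and 8 with the replicate block and length trend removed. Over the 5 lists, with 1 gene higher and 17 lower, there were 2 higher and 10 lower on scaling to total counts, 2 higher with the replicate block, 2 higher with the block and length trend removed, and 0 higher by limma-trend on the deposited log2 values. Leaving out 1 library gave 0 to 3 higher and 7 to 19 lower. Ryr3 lost its call by limma-trend (-0.24). Cacna2d1 passed by DESeq2 (-0.11), with the GC trend removed (-0.17) and with the replicate block and length trend removed (-0.082), and lay between -0.14 and -0.088 without 1 library. Cacnb1 was lost with the GC trend removed (-0.078) and by total counts (-0.091), with -0.15 to -0.10 without 1 library. Cacng1 and Stac3 passed with the length trend removed (-0.099 and -0.13), also with the replicate block (-0.099 and -0.13). Jph2 was lost with the GC trend removed (-0.080) and ranged from -0.15 to -0.11 without 1 library, and Jph1 turned to 0.011 by total counts. The differences in log2 ratio between members moved by less than the spread between libraries on omission of 1 library, in same-numbered pairs and with the deposited values. In settings chosen after seeing the data they moved by more for Ryr3 to Ryr1 (-0.055), Jph2 to Jph1 (-0.022) and Cacna2d1 to Cacna1s (0.027) with the GC trend removed, and for Cacng1 to Cacna1s (0.098) with the length trend removed.

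Same-numbered libraries did not all deviate together: over 8993 genes the correlations of deviations for numbers 1, 2 and 3 were 0.19, 0.07 and -0.04. The libraries numbered 1 correlated best with each other, but RANKL replicate 2 correlated best with vehicle replicate 3 (0.19). The replicate block alone gave 730 higher and 1008 lower genes and left the members' calls at 5. With 3 libraries a group, the exact tests of ratios cannot go below 0.1, and changes of a few percent lie within the 95% intervals of the members that did not pass.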
